A study of Homo sapiens with 7 samples.

Results

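GPNMB and 9 further genes of the melanosome, the organelle in which pigment cells make and store melanin, were followed in PC3 cells, an established human prostate cancer line that was derived from bone. The 10 members (GPNMB, PMEL, MLANA, TYR, TYRP1, DCT, RAB27A, RAB32, RAB38 and OCA2) were chosen by name as genes of pigment cells, most of them targets of the transcription factor MITF there. The choice was made with earlier results of these data known. All arrays were of PC3 TRIPZ-MITFA cells, which carry a lentiviral, doxycycline-inducible HA-Flag-tagged MITFA, and they were either untreated (No dox, 3 arrays, replicates 2, 3 and 4) or treated with doxycycline (Dox, 4 arrays, replicates 1 to 4). The dose and time of the treatment were not given for the arrays in the sources used here. No array of doxycycline-treated cells without MITFA was analysed here, so the effects of doxycycline and of MITFA cannot be told apart. It is not stated whether each array had a culture of its own, and the p-values rest on how much these arrays vary, which may be technical only.

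Illumina BeadChips read each gene with probes of fixed sequence, and a detection p-value sets each signal against negative control probes of the same array. Of 47323 probes, 19337 (40.9%) were detected (p-value under 0.01) on 1 array or more, and these were tested with limma after background correction. Platform names were at hand only for these probes, of which 15060 carried 1 gene name, 2 carried several and 4275 carried none. Among them, 7 probes carried the name of a member, for 5 of the 10 genes, out of 11389 genes tested: 2 probes of GPNMB, 2 of RAB27A and 1 each of RAB32, RAB38 and OCA2. The only tested probe named MITF changed by −0.06 on the log2 scale (limma, adjusted p = 0.90). No source used here tells whether it reads the cassette, so it does not check the induction. The paper reports MITFA induction by doxycycline in PC3 TRIPZ-MITFA cells by quantitative real-time PCR and western blot, measurements other than these arrays.

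Melanosomes mature from endosomes in steps that need a fibrous scaffold, pigment enzymes and small GTPases for traffic. PMEL forms the fibrils, MLANA assists PMEL, and TYR, TYRP1 and DCT carry out steps of melanin synthesis. GPNMB is a membrane glycoprotein related to PMEL that is found in melanosomes and in lysosomes of macrophages and osteoclasts. RAB32 and RAB38 direct the enzymes to the maturing organelle, RAB27A couples it to the actin motor myosin Va, and OCA2 is a membrane protein that sets its pH. In melanocytes MITF binds the M-box, an E-box with the core CATGTG that is often preceded by T, in promoters of pigment genes.

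The promoters of the members were read for this core after GPNMB had stood out in the comparison of Dox with No dox. Binding of MITF to them was not measured on these arrays. RefSeq promoters (GRCh38.p14, 250 bases before to 50 after each annotated start) were at hand for 8 members, with 13 starts. The letters CATGTG were searched on both strands, so that a match on the other strand reads CACATG. Of all 35116 promoters, 11.1% held at least 1 match and 1.46% held 2 or more. The 7-letter form TCATGTG, which contains the shorter one, was in 2.92% of promoters, and 0.0968% held 2 or more. The GPNMB promoter held 2 matches, both of the 7-letter form. The 250 bases upstream of GPNMB (chr7:23246525-23246774, + strand) are shown 5′ to 3′ with the 6 letters of each match in capitals.
GPNMB upstream: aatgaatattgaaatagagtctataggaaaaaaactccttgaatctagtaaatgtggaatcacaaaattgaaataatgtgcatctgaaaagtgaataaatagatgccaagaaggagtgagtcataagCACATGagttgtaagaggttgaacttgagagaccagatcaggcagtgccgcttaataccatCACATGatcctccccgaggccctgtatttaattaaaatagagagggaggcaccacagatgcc

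The matches of the pigment enzymes and of OCA2 are given for comparison with those of GPNMB, each with 10 bases on either side, on the strand of the gene, the 6-letter match in capitals.
TYR, chr11:89177761-89177786, + strand: aaaagtcagtCATGTGcttttcagag
TYR, chr11:89177853-89177878, + strand: tcagccaagaCATGTGataatcactg
TYRP1, chr9:12693231-12693256, + strand: ggaagggaatCATGTGctgatcaagt
TYRP1, chr9:12693364-12693389, + strand: ggcagcaatcCACATGcacttaacag
DCT, chr13:94479882-94479907, − strand: ttggctggagCACATGagcccagata
DCT, chr13:94479801-94479826, − strand: cactttgggtCATGTGctaatgatga
OCA2, chr15:28099453-28099478, − strand: tgggcggggcCATGTGggcagctttg
TYR and TYRP1 each had 1 match of the 7-letter form and 1 of the 6-letter form, and both matches at 1 of the 2 starts of DCT were of the 7-letter form. The single OCA2 match was of the 6-letter form. No match lay in these windows of MLANA, RAB32 or any of the 5 starts of RAB27A, which says only that these letters are absent there. The symmetrical E-box CACGTG, present in 7.26% of all promoters, was in none of the 13. Of the genes called in these arrays, 19 had a promoter in the table and 6 of them held CATGTG, against 9.91% of 9240 tested genes. The 7-letter form was in 2 of the 19, against 2.48%, and CACGTG in 0 of the 19, against 12.7%. GPNMB prompted the search and is counted among the 6 and among the 2, so these shares include the case that led to them. Whether these shares differ beyond chance was not tested.

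**Figure D1:**
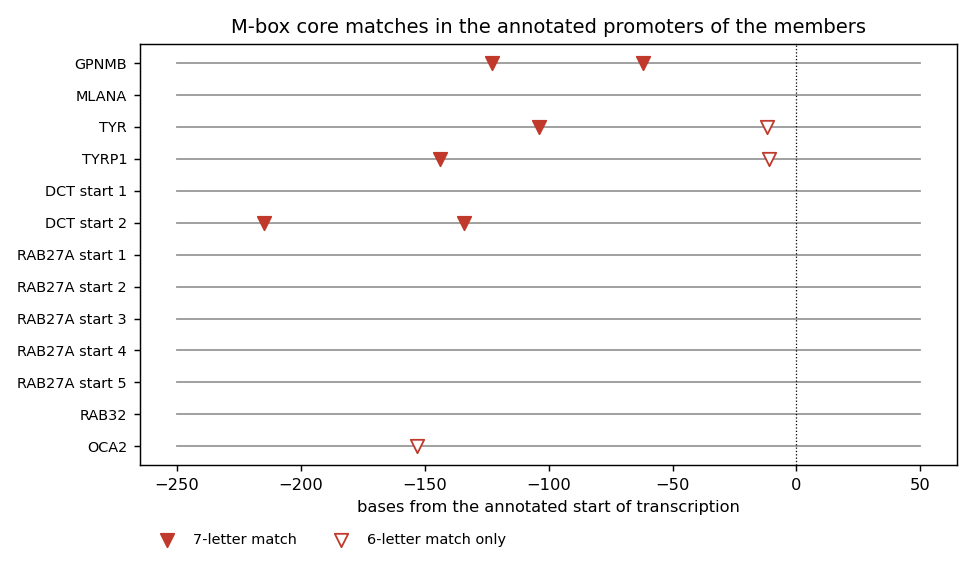
Positions of CATGTG matches (triangles, both strands) in the RefSeq promoters of the members, as bases from the annotated start of transcription; filled triangles mark the 7-letter form TCATGTG. GPNMB has filled triangles at −123 and −62, and no triangle lies on RAB32, MLANA or the starts of RAB27A.

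GPNMB was the only member to pass an adjusted p under 0.05 in this limma fit, with 1 of its 2 probes. Its probe ILMN_1801205 (transcript NM_001005340) was measured 2.59-fold higher in Dox than in No dox (95% CI 2.13 to 3.16), with No dox at the detection limit. Setting the undetected No dox readings at the lowest detected value of their array gave a point estimate of 2.27-fold. This setting was chosen after seeing the data, and its value bounds neither sampling error nor the choice of background model. The signal intensity was 94.8, 86.5 and 87.8 on No dox replicates 2, 3 and 4. On Dox replicates 1 to 4 it was 140, 118, 123 and 132. The dimmest Dox array was brighter than the brightest No dox array, and the gap between the groups was wider than the spread within either. Signals were detected on all 4 Dox arrays and on 1 of 3 No dox arrays, where the lowest detected signal of an array lay between 91.5 and 93.9. Of all tested probes, 0.398% were detected on all Dox arrays and at most 1 No dox array, and 0.476% the other way round. After background correction No dox had a mean log2 signal of 4.56 ± 0.21 (SD, n = 3) and Dox one of 5.93 ± 0.20 (SD, n = 4), a log2 fold change of 1.38 (SE 0.13) with an adjusted p of 0.0018 in limma. It ranked 9 by p among the tested probes. In bulk RNA, a change in the number of cells with GPNMB and a change in RNA per cell cannot be told apart. An exact two-sided permutation test gave p = 0.029, the smallest that 35 splits allow. In all, 1 of 7 member probes was called higher and 0 lower, against 0.134% of all tested probes called higher and 0% lower at an adjusted p under 0.05. Of the 7, 6 had a log2 fold change above 0, against 49.7% of tested probes. GPNMB gave 2 of the 7, and the members were chosen with earlier results of these data known, so these counts are descriptions only. The size depended on the background model, since GPNMB was dim in No dox: the authors' processed values gave 1.43-fold (log2 fold change 0.51, limma adjusted p = 2.9e-05). On those values 2 member probes, of GPNMB and RAB32, were called higher, against 0.393% of tested probes.

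The second GPNMB probe, ILMN_2407389 (transcript NM_002510), gave 94.5, 85.1 and 89.9 in No dox and 106, 101, 95.4 and 113 in Dox. The groups did not overlap here either, although No dox replicate 2 came close to Dox replicate 3. The exact two-sided permutation test of the difference in means gave p = 0.057. Signals were again detected on 1 of 3 No dox arrays and all 4 Dox arrays. The measured log2 fold change of 0.64 (95% CI 0.31 to 0.97) did not pass over all probes (adjusted p = 0.27 from limma). With undetected readings at the detection limit the point estimate was 0.46. Taken within each array, the log2 difference between the probes of GPNMB was larger in Dox than in No dox by 0.73 (p = 0.029 by exact two-sided permutation, the smallest possible). On the authors' values it was larger by 0.30, with the same p. Both probes averaged 4.56 in No dox, at the detection limit, so this difference rests on the Dox readings and does not give how far each transcript record changed.

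**Figure D2:**
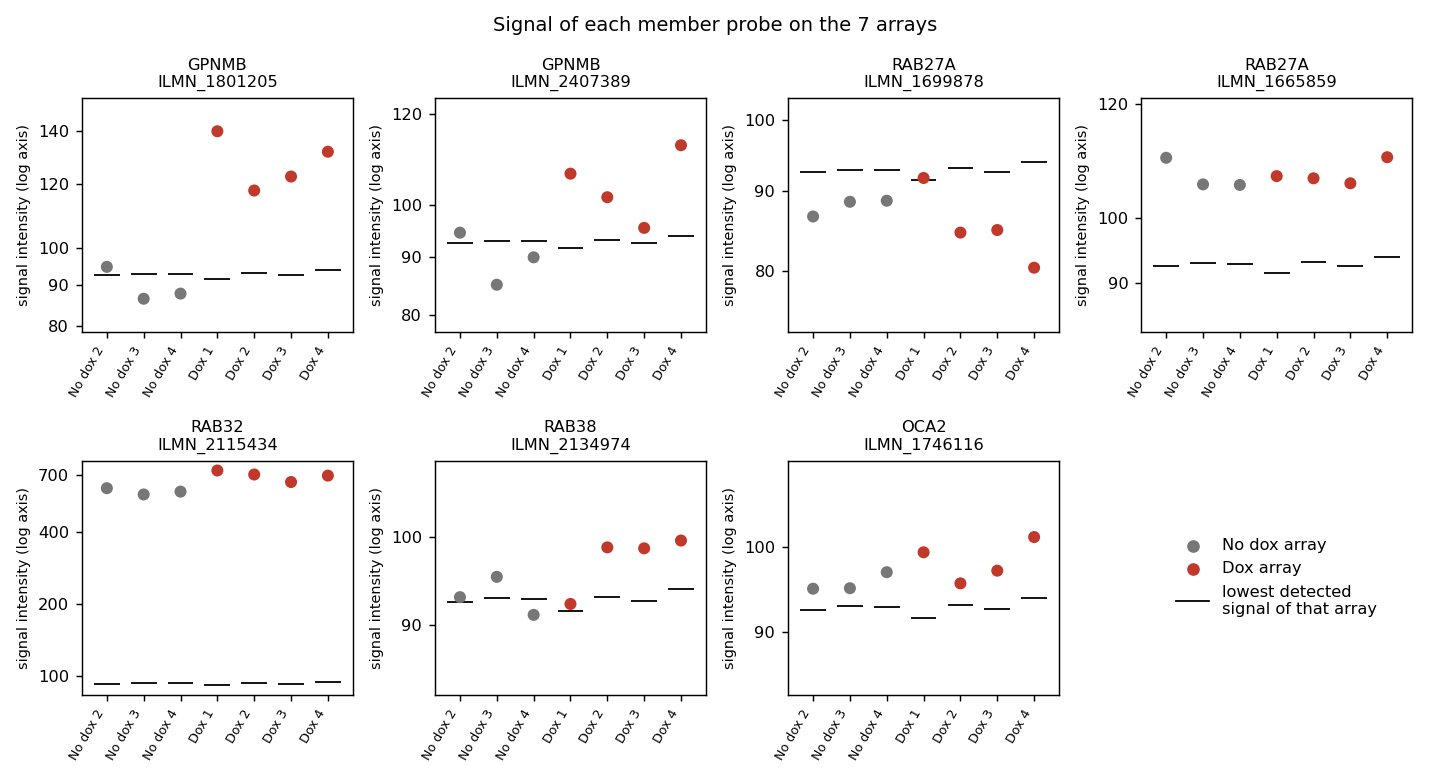
Signal intensity (log axis, scaled per panel) of the 7 member probes on each array; grey points are No dox, red points Dox, and black bars mark the lowest signal detected on that array. Red points lie above all grey points for both GPNMB probes and for RAB32, and the first RAB27A panel lies below the bars except on Dox replicate 1.

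RAB32, a GTPase of melanosome traffic that is also expressed outside pigment cells, was the only member with a signal far above the detection limit. Its signals were 614, 578 and 594 in No dox and 728, 701, 651 and 693 in Dox. Every Dox array was brighter than every No dox array, by a small margin. No dox had a mean log2 signal of 9.04 ± 0.04 (SD, n = 3) and Dox one of 9.29 ± 0.03 (SD, n = 4), a 1.20-fold difference (95% CI 1.08 to 1.32) that did not pass over all probes (unadjusted p = 0.0027, adjusted p = 0.31 from limma). On the authors' values, where it was 1.17-fold, it passed (adjusted p = 0.020 from limma). The separation gave p = 0.029 in the exact two-sided permutation test. Of all tested probes, 5.07% had every Dox array above every No dox array, against 3 of the 7 member probes (both of GPNMB and that of RAB32), and 4.24% had every Dox array below, against 0 of 7. An unadjusted p under 0.05 with higher Dox signals was found for the same 3, against 4.49% of tested probes.

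RAB38, the closest relative of RAB32 in pigment cells, stayed near the detection limit. The signals were 93.1, 95.4 and 91.1 in No dox and 92.3, 98.8, 98.7 and 99.6 in Dox, so Dox replicate 1 lay among the No dox arrays while the other 3 Dox arrays lay above them. It was detected on 2 of 3 No dox arrays and on all 4 Dox arrays. The log2 fold change was 0.21 (95% CI −0.03 to 0.45, adjusted p = 0.65 from limma).

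RAB27A, which also serves secretion in other cells, had unlike probes. At ILMN_1665859 (transcript NM_183236), detected on all 7 arrays, the signals were 110, 106 and 105 in No dox and 107, 107, 106 and 110 in Dox. The groups covered the same range. The log2 fold change was 0.02, with a 95% CI of −0.15 to 0.19, so that the upper bound was 1.14-fold (adjusted p = 0.96 from limma). The other probe, ILMN_1699878 (transcript NM_183235), was below the detection limit on all 3 No dox arrays and on 3 of 4 Dox arrays, with signals between 80.4 and 91.8, so no fold is given. Its adjusted p was 0.87 from limma.

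OCA2 was detected on all 7 arrays by a small margin over the limit. The signals were 94.99, 95.05 and 96.96 in No dox and 99.4, 95.6, 97.2 and 101 in Dox. The groups overlapped at Dox replicate 2. With a log2 fold change of 0.13 (95% CI −0.05 to 0.30), OCA2 did not pass (adjusted p = 0.70 from limma). RAB27A ILMN_1665859, RAB32 and OCA2 made up the 3 of 7 member probes detected on all 7 arrays, against 72.9% of tested probes. Over the whole table the share was 29.8%, but this includes probes detected on no array, for which no names were at hand.

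**Figure D3:**
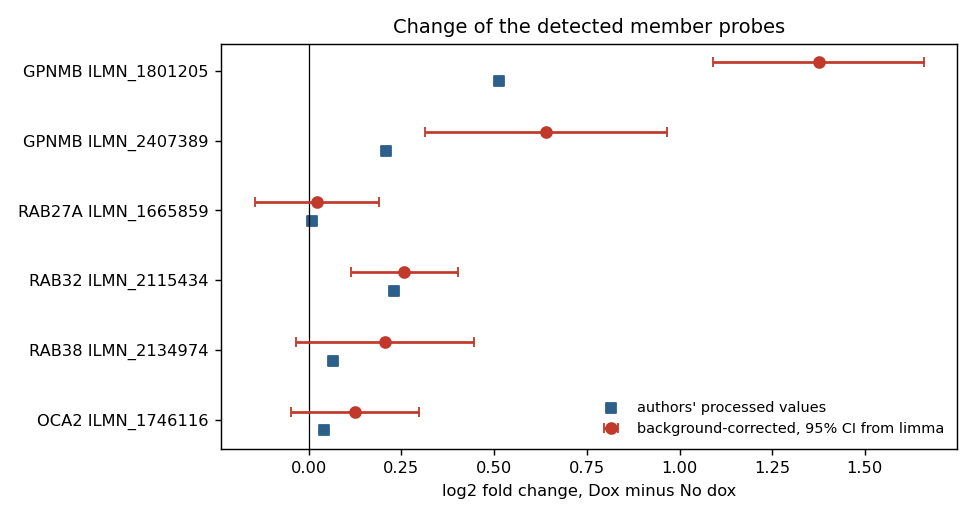
Log2 fold change (Dox minus No dox) of the 6 member probes detected on every array of at least 1 group; red points with 95% CI come from limma on background-corrected values, and blue squares are the same contrast on the authors' processed values. The interval of GPNMB ILMN_1801205 runs from 1.09 to 1.66, those of RAB27A, RAB38 and OCA2 include 0, and RAB32 is at 0.26 and 0.23 on the 2 scales.

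The defining pigment genes PMEL, MLANA, TYR, TYRP1 and DCT gave no value. No tested probe carried any of these names, so probes for them may lie among the 27986 probes below the detection limit, among the 4275 without a name, or not in the tables used here. Of 10 pigment cell markers (TYR, TYRP1, DCT, MLANA, PMEL, SOX10, TRPM1, SLC45A2, SLC24A5 and GPR143), 0 had a named probe above the limit. Of 5 epithelial markers 4 were tested, with KRT19, a keratin of simple epithelia, at signals from 1160 to 1265 and EPCAM, an epithelial adhesion protein, from 345 to 491. KRT8, a partner keratin, was at 151 to 181, and CDH1, which encodes E-cadherin, was near the limit at 92.5 to 104 and detected on 2 of 3 No dox and 4 of 4 Dox arrays. Of 8 macrophage markers, listed because macrophages also carry GPNMB, 3 were tested and PTPRC, CSF1R, CD163, TYROBP and FCER1G had no named probe above the limit. Those tested were CD68, a lysosomal membrane protein that other cells carry too (0.18 on the log2 scale, limma adjusted p = 0.63), CD14 (0.21, adjusted p = 0.71) and AIF1 (0.09, adjusted p = 0.85). Their summed signal before normalization, most of it CD68, was 522 to 549 in No dox and 556 to 599 in Dox. That of the 4 epithelial markers was 1815 to 2018 in No dox and 1805 to 1942 in Dox. No epithelial or macrophage marker was called. The paper names no cells other than the PC3 TRIPZ-MITFA line for these arrays. The part of other cells in the GPNMB values was not tested.

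**Figure D4:**
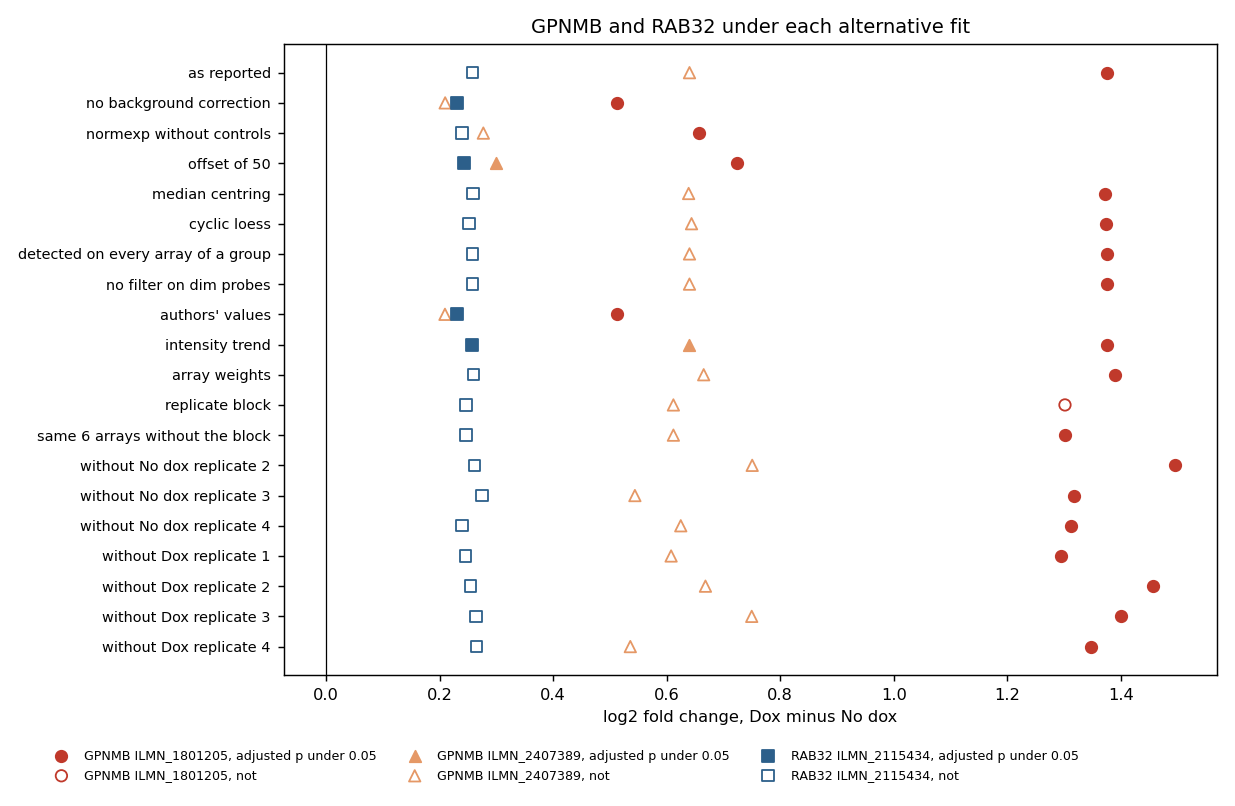
Log2 fold change (Dox minus No dox) of both GPNMB probes and of RAB32 as reported and under the processing alternatives, with filled symbols where the adjusted p from limma was under 0.05. GPNMB ILMN_1801205 runs from 0.51 on the authors' values to 1.5 without No dox replicate 2 and is open only with the replicate block, whereas RAB32 stays between 0.23 and 0.28 and is filled in 4 lines.

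Partners of the members were described as lists, with the brightest tested probe standing for each gene. Over all 11389 genes tested the median log2 fold change was 0.01, 51.9% were above 0 and 0.202% were called higher. Every Dox array was above every No dox array for 6.05% of genes, and 5.01% were higher at an unadjusted p under 0.05. No gene of the 5 lists that follow passed at an adjusted p under 0.05. Of 22 genes that serve RAB27A or RAB32 and RAB38, 16 were tested, 12 were above 0 and the median was 0.08, with 3 higher at an unadjusted p under 0.05 and 0 lower. RAB27B, the near relative of RAB27A, had a mean log2 signal of 10.02 ± 0.06 (SD, n = 3) without doxycycline and of 10.28 ± 0.02 (SD, n = 4) with it, and the groups did not overlap (difference 0.26, limma adjusted p = 0.32). On the authors' values RAB27B passed (0.24, adjusted p = 0.016 from limma). MLPH, the melanophilin that joins RAB27A to myosin Va, had 0.18 (adjusted p = 0.56), and RAB29, another relative of RAB32, had 0.19 (adjusted p = 0.56). ANKRD27, an effector of RAB32 and RAB38, was at −0.14 with groups apart (adjusted p = 0.62). MYO5A, the myosin Va heavy chain, was at 0.01.

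Of 25 genes of the complexes that build melanosomes and related organelles (the BLOC and AP complexes and their helpers), 22 were tested, 15 were above 0 and the median was 0.01, with 0 at an unadjusted p under 0.05 in either direction. The range was narrow, from −0.22 for SNAPIN to 0.18 for BLOC1S4, both subunits tied to BLOC-1, and ATP7A, the copper transporter that loads tyrosinase, had 0.15 (adjusted p = 0.70 from limma). BLOC1S6, a further subunit, had 0.10. Of 11 relatives, processing enzymes and partners of PMEL and GPNMB, 7 were tested and 6 were above 0, with a median of 0.06 and 2 higher at an unadjusted p under 0.05. BACE2, the protease that cleaves PMEL in melanocytes, had a log2 fold change of 0.22 with groups apart (unadjusted p = 0.0098, adjusted p = 0.46 from limma). CD44, a hyaluronan receptor, had 0.16, the integrin chains ITGA5 and ITGB1 had 0.12 and 0.06, and SDC4, a syndecan that binds GPNMB, had −0.01.

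Of 18 further pigment lineage genes, 4 were tested and 2 were above 0. TSPAN10, a tetraspanin of pigment cells, had signals detected on all 7 arrays, a log2 fold change of 0.35 and groups that did not overlap (unadjusted p = 0.0083, adjusted p = 0.42 from limma). MC1R, the melanocortin receptor, was detected on all 7 arrays at −0.06 (adjusted p = 0.92), and ERBB3 and IRF4 were detected on 1 array of each group, so no difference is given for them. Of 20 genes named as MITF targets outside pigment production, 14 were tested, 11 were above 0 and the median was 0.07. CDKN1A, which encodes the cell cycle inhibitor p21, had 0.24 (unadjusted p = 0.042, adjusted p = 0.57 from limma). CLCN7, a chloride transporter of lysosomes and the osteoclast border, had 0.13, and CEACAM1 (0.17) and TNFRSF11A (0.20) were detected on 1 of 3 No dox and 3 of 4 Dox arrays.

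**Figure D5:**
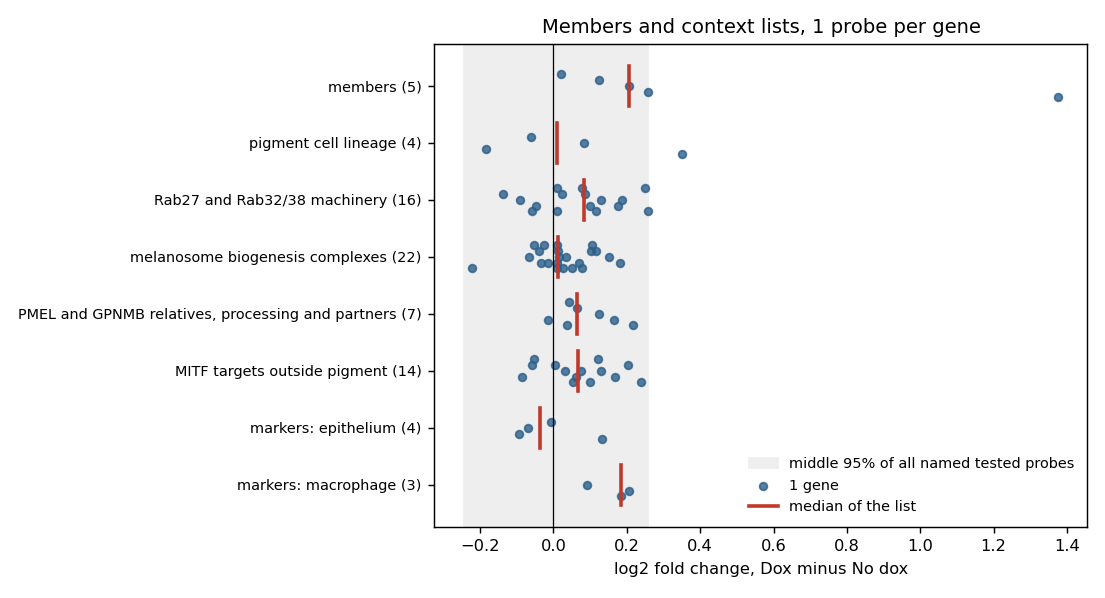
Log2 fold change (Dox minus No dox) of each tested gene in the members and the context and marker lists, with red bars at list medians and the number of genes in brackets; the grey band holds the middle 95% of named tested probes. The GPNMB point at 1.38 stands outside the band, and the list medians lie between −0.04 and 0.21.

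The tested probes whose pattern over the 7 arrays was most like that of GPNMB ILMN_1801205 were those of ENO2 (Pearson r = 0.99), SNX19 (0.99), BHLHE40 (0.99), TM7SF2 (0.99), ABLIM3 (0.99) and GDF15 (0.99). The most opposite were ASS1 (−0.98), PARM1 (−0.97) and FBN2 (−0.96). These correlations describe 7 arrays that span the contrast of Dox with No dox, so any probe with a shift between the groups scores high. Of these 9 probes, TM7SF2 (0.63 on the log2 scale, limma adjusted p = 0.036) and GDF15 (0.76, adjusted p = 0.0059) were called. Among the members, r with this probe was 0.96 for RAB32, 0.90 for the second GPNMB probe, 0.71 for OCA2, 0.48 for RAB38 and 0.28 and −0.23 for the probes of RAB27A.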

How the data were processed

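The files the authors deposited hold signal intensity with a detection p-value for each of 47323 probes, exported from GenomeStudio, and processed log2 values for 19337 probes. The authors made the log2 values in lumi, with background correction and quantile normalization named in the methods. The deposited log2 values differed by at most 0.0462 from quantile-normalized log2 signal without background correction. Here the deposited intensity values were background-corrected with neqc of limma (version 3.58.1, R 4.3.3; controls inferred from the detection p-values, offset 16), put on the log2 scale and quantile-normalized in place of lumi. The 19337 probes detected (p-value under 0.01) on 1 array or more were fitted with limma (7 arrays, no covariates), with Benjamini-Hochberg adjustment over all 19337. The number of arrays limits the precision. The code was tested on simulated data. Names come from the platform annotation, updated through RefSeq gene identifiers. Named are all member probes, in each list the called genes and up to 4 with the smallest p, and the probes most and least like GPNMB; further genes were named after their values were seen. The members and lists were chosen with earlier results of these data known. No arrays were identical (correlations 0.996 to 0.997), and between 15562 and 16618 probes were detected on an array. Alternatives covered background, offset, normalization, filter, variance model, array weights, the replicate block and each array left out, and an added setting put undetected GPNMB readings at the detection limit.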

Additional observations from a re-analysis of the deposited data

Results flagged for a closer look

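For RAB38, Dox replicate 1 stood apart below the other 3 Dox arrays, with a gap over the range of 0.874. Among 7 member probes checked in the group of 4 Dox arrays this was the 1 so marked, and chance marks about 1 in 20 groups. Without this array the log2 fold change of RAB38 was 0.29 (adjusted p = 0.51 from limma), against 0.21 with it.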

How the results depend on the processing

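GPNMB ILMN_1801205 kept its call in 18 of 19 alternative fits, with log2 fold changes from 0.51 to 1.5, and lost it with the replicate block (1.3, adjusted p = 0.068 from limma, against 0.0075 for the same 6 arrays without the block). Whether the replicate numbers pair the arrays is not known. After the group mean of each probe was taken off, same-numbered arrays had correlations of −0.03, 0.01 and −0.02. Of these arrays, 0 of 6 correlated best with its own number. So few pairs do not settle whether same-numbered arrays shared a culture or run. The number of member probes called, 1, became 2 on the authors' values or with no background correction (GPNMB and RAB32), 3 with an offset of 50 or an intensity trend (both GPNMB probes and RAB32) and 0 with the block. Over all probes 26 were called (26 higher, 0 lower), against 101 on the authors' values or with no background correction (76 higher, 25 lower in each), 87 with normexp without controls (66 and 21), 127 with an offset of 50 (87 and 40), 132 with an intensity trend (93 and 39), 6 with the block, and 12 to 18 with 1 array left out: the lowest count, 12, came on leaving out No dox replicate 3, then 13 for No dox replicate 2, 14 for Dox replicate 4 and 16 for Dox replicate 2. With only probes detected on every array of a group, 34 were called (32 higher, 2 lower). In the 5 alternatives with 87 or more calls, 1 context gene, RAB27B, was called. With the 6 arrays of replicates 2 to 4, with or without the block, 5 member probes had groups apart, against 3: 4 with Dox higher, against 7.41% of tested probes, and 1 with Dox lower (RAB27A ILMN_1699878), against 6.55%. RAB27A ILMN_1699878 was below the detection limit on all 6 of those arrays. With undetected readings at the detection limit, chosen after seeing the data, the GPNMB point estimates were 1.18 and 0.46 (no test made). The difference between the GPNMB probes was 0.69 in those fits (exact permutation p = 0.10, the smallest possible) and 0.65 to 0.81 with 1 array left out, where the exact permutation test cannot go below 0.067 or 0.10. Of 7 member probes, 3 were detected on all 7 arrays. No member with a call changed sign; RAB27A ILMN_1665859, without a call, did in 2 alternatives. RAB27A ILMN_1699878 was not tested in 2 alternatives, for lack of detection. No fit with the BeadChip as a block was made, as no column gives a chip.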
